A study of Arabidopsis thaliana with 24 samples.

Results

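A group of 90 genes was chosen for lower expression at 1 and 2 h of dexamethasone treatment in Arabidopsis thaliana root meristems. Most of them were still lower, by a moderate amount, at 4 to 6 h, which the rule of choice in part fixed. The 90 members were chosen by 4 conditions on time means of the log2 expression level, a scale on which 1 unit is a 2-fold difference. A member had a mean of at least 5 over the 24 arrays, a mean of 1 and 2 h minus the mean of 0 h between -0.9 and -0.35, and a mean of 4, 5 and 6 h minus the mean of 0.5, 1 and 2 h between -0.3 and 0.3. In addition, 9 genes given by name or locus and all plastid-encoded genes were left out, although none of the 9 and none of the 63 plastid-encoded genes met the numbers. Of 16552 genes with a probe set of their own, 6173 had a mean of at least 5, and 90 of these met the rule.

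The seedlings were Col-0 plants aged 4 days with the introduced constructs pRPS5A::TMO5:GR x pRPS5A::LHW:GR, together called dGR. TMO5 and LHW are basic helix-loop-helix transcription factors that pair with each other and drive the division of vascular cells. In the fusions the glucocorticoid receptor domain keeps them out of the nucleus until dexamethasone is given, and the RPS5A promoter is active throughout dividing tissue rather than in vascular cells alone. Seedlings were moved to medium with dexamethasone, and root meristems were taken at 0, 0.5, 1, 2, 3, 4, 5 and 6 h, with 3 arrays (repeats 1, 2 and 3) at each time. All groups carried both constructs and all were labelled as dexamethasone, so 0 h served as the reference. No array of seedlings moved to plain medium was analysed here. The move, the steroid and the elapsed time cannot be told apart in any comparison with 0 h. In tissue samples, fewer cells of a type and less RNA per cell cannot be told apart either.

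Roots register handling within minutes. Transfer, touch and wounding raise calcium signals, activate kinases that phosphorylate transcription factors, and start the synthesis of jasmonate, a lipid hormone of wounding and defence. Messages induced in this way are usually short-lived and decline once the stimulus has passed, while genes of cell wall growth and auxin transport follow the growth state of the tissue. The members with an annotated name touch several of these processes: 13 of the 90 had a name and 77 were known by their locus code alone. These processes are given as background, and the part of handling in the members' lower levels was not tested. Symbols were about as frequent among the members, at 13.3%, as among all genes, at 10.7%. Roles are given for named genes only.

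Array quality bears on the 0 h values first. Array medians ran from 3.86 to 4.01, and precision is limited by having 3 arrays a time. On the first principal component of all genes, which held 18.8% of the variance, array 3 of 0 h lay at -5.16, against -27.2 and -21.5 for arrays 1 and 2, and array 3 also stood apart at 0.5, 1, 2 and 3 h. Without the third arrays of 0, 0.5, 1 and 2 h, 126 genes met the rule, 70 of them among the 90. Among members, array 3 of 0 h was the lowest of the 3 in 33 of 90 members, against 29.7% of genes with a mean of at least 5. Its median difference from the mean of the other arrays was -0.02 in members and 0.04 in those genes. Of 20 markers of the root meristem, 4 were measured under a single name (BBM, JKD, AUR1 and AUR2), and their summed level, given as the array mean, lay between 6.30 and 6.74 over all times. The root hair markers EXPA7 and EXPA18 averaged 7.99 to 8.03 at 6 h and 7.01 to 7.75 at 0 h, and the shoot marker RCA read 5.19 to 5.45 at 6 h and 4.49 to 4.65 at 0 h. The 3 phloem markers measured, OPS, CLE45 and CLE44, averaged between 2.67 and 3.12. No marker of root cap, endodermis or xylem was measured under a single name. The part of a change in cell makeup in the members' lower levels was not tested.

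The shape of the group follows in part from how it was chosen, and is given as a description with no test. The median member lay at -0.30 against 0 h after 0.5 h, -0.40 after 1 h, -0.49 after 2 h, -0.39 after 3 h, -0.41 after 4 h, -0.44 after 5 h and -0.43 after 6 h. For the median member the lower level was in place early and did not deepen after 2 h, which the bound of the rule on later change in part fixed. At 0.5 h and at 3 h, 85 and 86 members lay below their 0 h mean, where 43.7% and 47.3% of genes with a mean of at least 5 did. These differences share the 0 h arrays that chose the members, and 0.5 h has a further part in the rule, so nothing is read from the counts. The highest of the 8 time means was that of 0 h in 79 members. The lowest was that of 2 h in 28 members, 1 h in 17, 6 h in 13, 5 h in 11, 4 h in 9, 3 h in 8 and 0.5 h in 4.

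**Figure D1:**
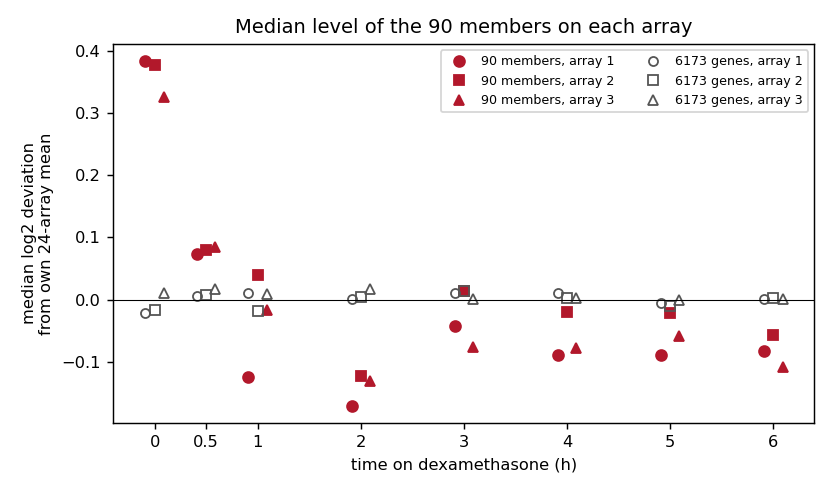
Median deviation from each gene's own mean over 24 arrays (log2, vertical axis) on each array against time on dexamethasone (h), for the 90 members (filled) and the 6173 genes with a mean of at least 5 (open); circles, squares and triangles are arrays 1, 2 and 3. The members sat at 0.38, 0.38 and 0.33 at 0 h and between -0.17 and 0.08 on all later arrays, while the open symbols stayed near 0.

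Array by array, the 3 arrays of 0 h stood above all others for the median member, at 0.38, 0.38 and 0.33 above the gene's own mean. The 3 arrays of 0.5 h read 0.07, 0.08 and 0.08. At 1 h the arrays spread to -0.12, 0.04 and -0.02, and at 2 h they lay at -0.17, -0.12 and -0.13. The 0.5 h level thus lay between those of 0 h and 2 h on all 3 arrays. At 0 h, 83, 81 and 88 members were above their own mean on arrays 1, 2 and 3.

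The sustained lower level is given as a description, since the rule bounded the change from the early to the late times and used the same 0 h arrays. Over 4 to 6 h, 63 members still lay at or below -0.35 against 0 h, 25 lay between -0.35 and 0, and 2 were at or above 0. These 2 were AT1G22470, at 0.02, and AT1G19450, at 0.03. Both also varied widely among the early arrays. AT1G22470 read 6.16, 5.63 and 6.56 at 0 h, 5.21, 5.43 and 6.17 at 1 h, and then 6.12, 6.27 and 6.17 at 6 h, so that array 3 was high at the early times and the times overlapped. For the median member the difference at 4 to 6 h was -0.44, with a range from -1.22 to 0.03. The word sustained therefore holds for most of the 90 genes but not for all of them.

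Arrays of the later times and of 0 h often did not overlap. All 6 arrays of 1 and 2 h lay below all 3 arrays of 0 h in 49 members, where 1.96% of all genes showed this, and since the rule used these arrays the count is a description of it. All 9 arrays of 4 to 6 h lay below those of 0 h in 46 members (3.61% of all genes), and all 18 arrays of 1 to 6 h in 32 (0.646%). These comparisons share their 0 h arrays with the rule, so nothing is read from them beyond the size of the separation.

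Members separated into an earlier and a later part by their 0.5 h values. At 0.5 h 34 members were already at or below -0.35, with a median of -0.45, and the other 56 had a median of -0.20. The 34 earlier members had medians of -0.48 at 1 and 2 h, -0.53 at 3 h and -0.57 at 4 to 6 h. The 56 others had -0.40, -0.36 and -0.38 at the same times. The earlier part thus had the lower median at each later time, but both parts share the 0 h arrays, which enter each difference. LEP, AT1G22470, AT1G19450, AT1G18390 and AT3G26910 had a 0.5 h mean at or above that of 0 h.

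**Figure D2:**
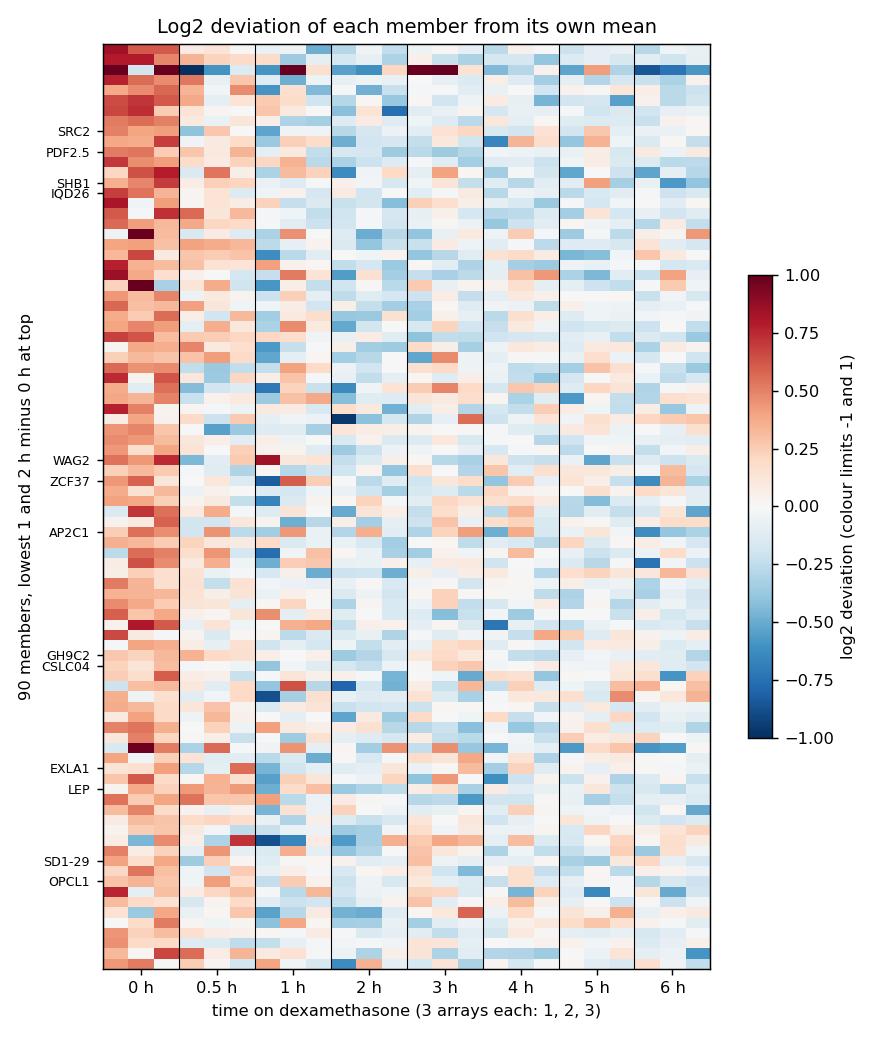
Log2 deviation of each of the 90 members (rows, lowest 1 and 2 h minus 0 h at the top, the 13 named members marked) from its own mean over 24 arrays, in columns ordered by time on dexamethasone and array; red is above and blue below the mean. The 3 columns of 0 h are red for most rows, and the first column of 1 h holds more dark blue cells than the other columns of 1 h.

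The named members are taken by their known roles, as a grouping of the text with no test. PDF2.5 (AT5G63660), a plant defensin of the family of small cysteine-rich antimicrobial proteins, was among the brightest members. It read a lowest of 8.14, a median of 8.41 and a highest of 8.59 over the 18 arrays of 1 to 6 h, against 9.02, 9.03 and 8.75 at 0 h. No later array reached a 0 h array, and the difference was -0.59 for 1 and 2 h and -0.46 for 4 to 6 h.

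SRC2 (AT1G09070) encodes a C2-domain protein, a class that binds membranes, and is named after a cold-regulated gene of soybean. It ranged from 4.81 through a median of 5.27 to 5.61 over 1 to 6 h, against 5.84, 5.73 and 5.76 at 0 h. Its arrays of 0.5 h, at 4.94, 5.61 and 5.34, were already below all those of 0 h. The difference was -0.63 for 1 and 2 h, the lowest of the 13 named members.

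IQD26 (AT3G16490), an IQ-domain protein that binds calmodulin and so belongs to calcium signalling, had the same form. Its 18 arrays of 1 to 6 h ran from 5.22 through 5.41 to 5.59, against 6.19, 6.05 and 5.84 at 0 h, with no overlap. The level at 4 to 6 h was 0.67 log2 units below that at 0 h (-0.67), a little further than at 1 and 2 h (-0.57).

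OPCL1 (AT1G20510), the CoA ligase that activates the precursor of jasmonate for shortening in the peroxisome, was the one member on a list of jasmonate genes. Its arrays read 7.16, 7.22 and 7.16 at 0 h, 6.84, 7.30 and 7.05 at 0.5 h, 6.64, 7.13 and 6.92 at 1 h, 6.66, 6.83 and 6.72 at 2 h, and then 6.59, 6.72 and 6.67 at 6 h. The 0.5 h arrays overlapped those of 0 h, and all 18 arrays from 1 h on lay below them. Of the 36 genes of that list, 4 were measured, and 2 of the 4 had an early difference below 0. MYC3 and MYC4, transcription factors of the jasmonate response, had early differences of -0.21 and 0.47. JMT, which methylates jasmonate, had a mean of 1.75 over the 24 arrays, below every array's median, and no difference is given for it.

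AP2C1 (AT2G30020) is a protein phosphatase that inactivates stress-activated MAP kinases. It varied more between arrays, with 6.73, 7.04 and 6.95 at 0 h, 6.14, 6.92 and 6.42 at 1 h, 6.19, 6.85 and 6.38 at 2 h, and then 5.86, 6.10 and 6.17 at 6 h. Array 2 was the highest at each of these early times and overlapped the 0 h range. By 6 h all 3 arrays were below 0 h.

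SD1-29 (AT1G61380), an S-domain receptor kinase that senses bacterial fatty acid metabolites, had 6.03, 5.81 and 6.01 at 0 h, 5.50, 5.64 and 5.64 at 1 h, 5.67, 5.52 and 5.54 at 2 h, and then 5.83, 5.55 and 5.47 at 6 h. The arrays of 1 and 2 h lay below those of 0 h, but array 1 of 6 h was back within the 0 h range. Its early difference, -0.36, was close to the limit of the rule.

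A further 3 named members act on the cell wall. GH9C2 (AT1G64390) encodes an endoglucanase, an enzyme that acts on cellulose chains, and was the second brightest member. Its arrays read 8.93, 8.89 and 8.99 at 0 h, 9.01, 8.86 and 8.82 at 0.5 h, 8.73, 8.66 and 8.72 at 1 h, 8.31, 8.37 and 8.50 at 2 h, 8.77, 8.86 and 8.77 at 3 h, and then 8.55, 8.55 and 8.37 at 6 h. The arrays of 0.5 h overlapped those of 0 h, the lowest time mean was that of 2 h, and the 3 h arrays lay above all those of 2 h.

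CSLC04 (AT3G28180) makes the glucan backbone of xyloglucan, the main hemicellulose of the Arabidopsis wall. It read 8.28, 8.19 and 8.36 at 0 h, 7.66, 8.03 and 7.94 at 1 h, 7.88, 7.82 and 8.00 at 2 h, 8.07, 8.29 and 8.32 at 3 h, and then 8.17, 7.94 and 7.87 at 6 h. At 3 h the arrays overlapped those of 0 h, and at 6 h they did not. The difference was smaller over 4 to 6 h, at -0.23, than over 1 and 2 h, at -0.39.

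EXLA1 (AT3G45970) belongs to the expansin-like family, relatives of the wall-loosening expansins. It had 5.46, 5.50 and 5.74 at 0 h, 5.05, 5.25 and 5.89 at 0.5 h, 4.87, 5.15 and 5.23 at 1 h, 5.21, 5.24 and 5.46 at 2 h, and then 5.35, 5.31 and 5.27 at 6 h. Array 3 of 0.5 h was above every 0 h array. All arrays of 1 and 2 h lay below those of 0 h, although the nearest pair both rounded to 5.46. Of 70 measured genes whose names carry cell wall words, these 3 were members. The median early difference over the 70 was 0.00, with 35 below 0. Of the 67 that were not members, limma called 3 lower and 2 higher for 1 and 2 h against 0 h, where 0.495% of all genes were called lower and 0.58% higher, and 12 had an unadjusted p under 0.05 (11.2% of all genes). The rule used this comparison and had already taken the 3 members out, so nothing is read from these counts.

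WAG2 (AT3G14370), an AGC kinase that phosphorylates PIN auxin carriers, read 5.66, 5.55 and 5.87 at 0 h, 4.67, 5.02 and 5.38 at 0.5 h, 5.97, 5.23 and 5.25 at 1 h, 4.88, 4.98 and 5.18 at 2 h, and then 4.99, 4.91 and 4.97 at 6 h. It was low at every time but for array 1 of 1 h, which was the highest of its 24 values. At 4 to 6 h it lay 0.76 below 0 h (-0.76), the furthest of the named members, with no overlap.

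SHB1 (AT4G25350), an SPX and EXS domain protein that acts in hypocotyl growth under blue light, had 5.42, 5.56 and 5.77 at 0 h, 5.00, 4.94 and 5.05 at 1 h, 5.12, 5.04 and 4.91 at 2 h, and then 5.00, 4.49 and 4.67 at 6 h. These later arrays lay below 0 h, with a highest value of 5.48 over 4 to 6 h that overlapped it. LEP (AT5G13910), an AP2/ERF transcription factor of leaf development, was late: 6.29, 6.63 and 6.48 at 0 h were followed by 6.67, 6.59 and 6.68 at 0.5 h, 5.76, 6.44 and 6.56 at 1 h, 5.88, 5.94 and 6.00 at 2 h, and then 6.09, 5.98 and 6.13 at 6 h. For LEP the first time without overlap was 2 h. ZCF37 (AT1G59590) was the least even, with 5.63, 5.79 and 5.32 at 0 h, 4.38, 5.81 and 5.44 at 1 h, 5.20, 4.93 and 5.08 at 2 h, and then 4.57, 5.54 and 4.88 at 6 h. Its early difference was -0.44, and array 1 of 1 h was the lowest of its 24 values.

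**Figure D3:**
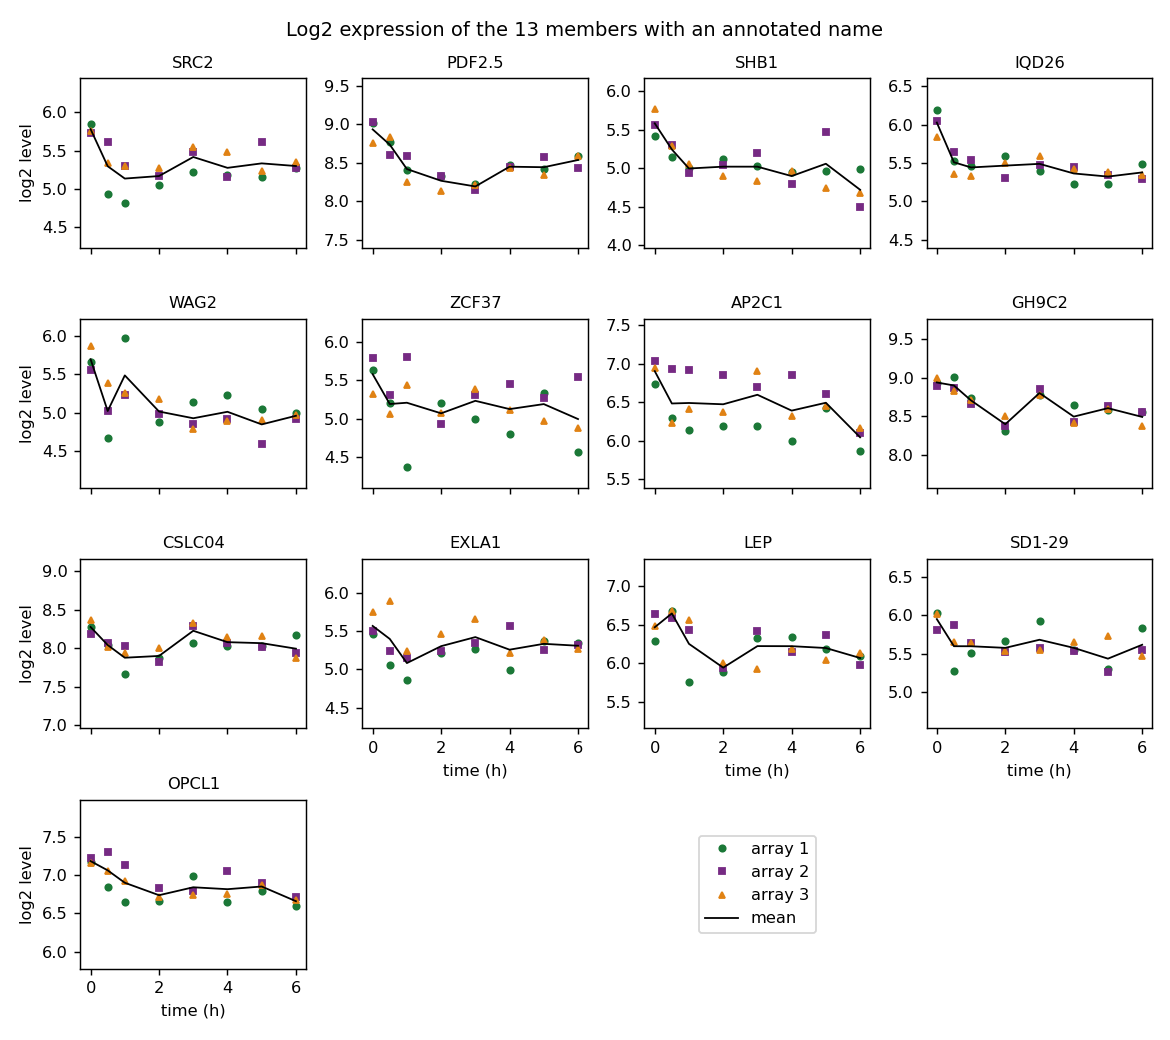
Log2 level (vertical axis, the same span in each panel) against time on dexamethasone (h) for the 13 named members; circles, squares and triangles are arrays 1, 2 and 3 and the line is their mean. PDF2.5, SRC2, IQD26, GH9C2 and OPCL1 have all 18 arrays of 1 to 6 h below those of 0 h, whereas ZCF37, AP2C1 and LEP have overlapping arrays.

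The largest differences without overlap were in genes known by locus code. AT4G20320 read a lowest of 5.38, a median of 5.80 and a highest of 5.91 over 1 to 6 h, against 6.71, 6.49 and 6.49 at 0 h. Its early difference was -0.89, close to the lower limit of the rule, and it was the member most like the median profile of the group over the 24 arrays (Pearson r 0.90, a description, since all members were chosen for this shape). AT1G31950 ran from 7.73 through 7.96 to 8.30 over 1 to 6 h, against 8.91, 8.92 and 8.61 at 0 h. Both were already lower at 0.5 h, by differences of -0.62 and -0.44.

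AT3G62570 ran from 5.07 through 5.45 to 5.62, against 6.33, 6.11 and 6.03 at 0 h, and AT4G01410 from 5.21 through 5.58 to 6.02, against 6.41, 6.48 and 6.37. The brightest member, AT3G23470 (mean 9.21), differed by little but with small spread. Its arrays lay between 8.96 and 9.31 over 1 to 6 h, with a median of 9.12, against 9.65, 9.44 and 9.52 at 0 h. The other members most like the median profile were AT1G02810 (r 0.88), AT4G39840 (0.86), AT5G41100 (0.85) and AT1G05280 (0.84), beside AT1G31950 (0.85). The range over all members was 0.14 to 0.90, with a median of 0.62.

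Members were not bright genes. Their mean over 24 arrays ran from 5.01 to 9.21 with a median of 5.77, against a median of 6.56 in genes with a mean of at least 5, and 35 members were under 5.5. Of the early differences, 52 lay between -0.45 and -0.35, and the median was -0.43, so that much of the group sat near the upper limit. Just inside that limit were AT3G48800 (-0.3504), AT3G27510 (-0.3518) and AT1G67750 (-0.3521), and just outside it AT1G50740 (-0.3468), AT1G63850 (-0.3458) and AT5G45780 (-0.3455). At the lower limit AT4G20320 (-0.889) was inside and GH9C3 (-0.925) outside. STZ, a zinc finger repressor of stress responses, was left out by its late minus early value of -0.3017, against -0.2883 for AT5G48940 inside. At the floor on the mean, AT3G23170 (5.006) was inside and AT4G25260 (4.986) outside.

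A few members were neighbours on the chromosome. AT5G45200 and AT5G45210 were adjacent, with early differences of -0.74 and -0.39. Their arrays of 0 h read 5.61, 5.69 and 5.80 for AT5G45200 and 6.87, 7.28 and 7.25 for AT5G45210. SHB1 and AT4G25390 had 3 protein-coding genes between them, with early differences of -0.58 and -0.37. AT4G39840, at -0.45, was adjacent to AT4G39830, one of the genes left out by locus, which had an early difference of -1.11.

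The spread between arrays of one time was wider in the members than in other genes, above all at 1 h. The median SD between the 3 arrays of 1 h was 0.240 in members and 0.128 in genes with a mean of at least 5. At 2 h the medians were 0.137 and 0.116, and at 6 h they were 0.123 and 0.0907. The largest of the 8 SDs was that of 1 h in 33 members, which compares with 18.0% of genes with a mean of at least 5. Array 1 of 1 h was the lowest of its 3 in 46 members (32.1% of those genes), and array 2 was the highest in 39 (25.6%). Members were dimmer than those genes at the median, and the part of brightness in their spread was not tested. The 1 h arrays also chose the members through the early difference, so the spread at 1 h is not free of the choice. It is not read as a trait of the members.

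**Figure D4:**
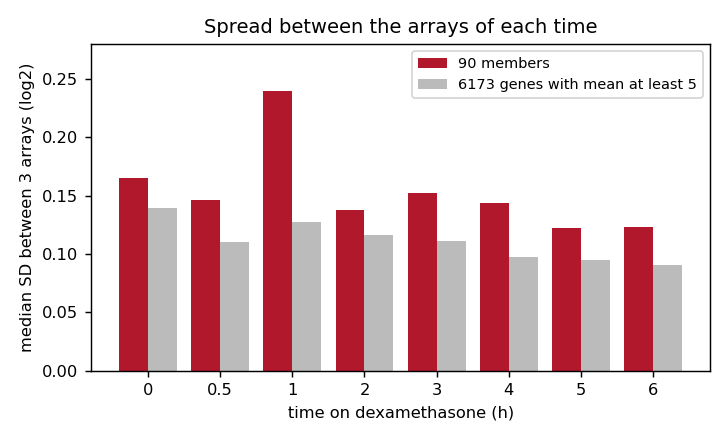
Median SD between the 3 arrays of each time (log2, vertical axis from 0) for the 90 members (red) and the 6173 genes with a mean of at least 5 (grey). The bars of the members are the taller at every time, and the widest gap is at 1 h, 0.240 in members and 0.128 in other genes.

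AT5G39580 was the most variable of the strongest members. It read 6.90, 5.24 and 6.70 at 0 h, 4.33, 4.82 and 5.28 at 0.5 h, 4.83, 6.99 and 5.58 at 1 h, 6.51, 6.51 and 5.56 at 3 h, and then 4.56, 4.68 and 4.83 at 6 h. The 1 h arrays spanned the whole 0 h range, and the 6 h arrays were the most even. It passed the rule at -0.83 for 1 and 2 h, and its value at 3 h was near that of 0 h.

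Because the 0 h arrays chose the members, their early difference can be larger in these arrays than in arrays that had no part in the choice. The same rule was therefore applied to 2 repeats of every time, and the genes it chose were read in the third. With repeat 1 left out, 101 genes were chosen, 58 of them members, and their median early difference in repeat 1 was -0.28, against -0.44 in the repeats that chose them. With repeat 2 left out, 113 genes (67 members) had a median of -0.23 in repeat 2, against -0.45. With repeat 3 left out, 132 genes (73 members) had -0.25 in repeat 3, against -0.44.

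The lower level thus carried over to each left-out repeat in most genes, at a smaller size. Below 0 were 77 of 101 genes in repeat 1 (76.2%, against 43.7% of genes with a mean of at least 5), 89 of 113 in repeat 2 (78.8%, against 48.0%) and 110 of 132 in repeat 3 (83.3%, against 49.8%). At or below -0.35 were 43, 37 and 49 genes in repeats 1, 2 and 3, where the share of genes with a mean of at least 5 was 5.31%, 4.39% and 3.57%. The difference at 4 to 6 h, read in the same left-out repeats, had medians of -0.22, -0.25 and -0.29. It was below 0 in 76, 87 and 108 genes, against shares of 46.8%, 48.5% and 53.9%. Most genes so chosen were therefore below 0 in each of these differences in arrays that had no part in the choice, and a minority were not. Both differences subtract the same 0 h array of the left-out repeat, and they were counted separately. A high value on that array lowers both, so it was not shown gene by gene that the level stayed lower.

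**Figure D5:**
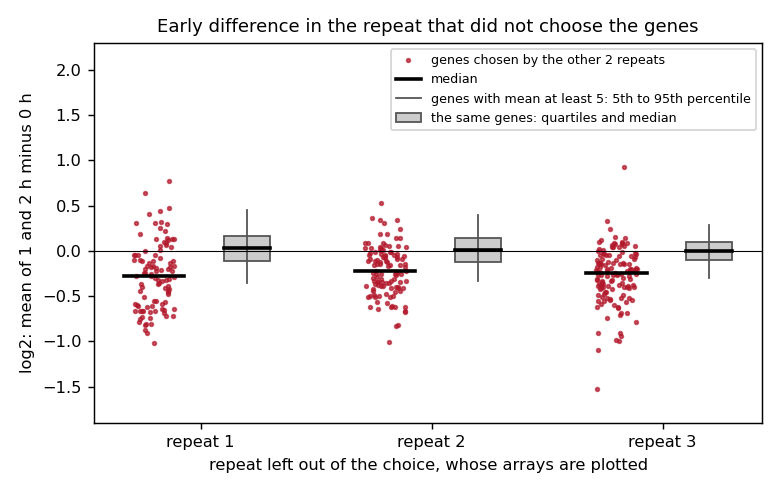
Mean of 1 and 2 h minus 0 h (log2, vertical axis) in the repeat left out of the choice, for each gene chosen by the other 2 repeats (points, with their median as a bar), beside genes with a mean of at least 5 (box for quartiles and median, line from the 5th to the 95th percentile). The medians of the chosen genes are -0.28, -0.23 and -0.25 in repeats 1, 2 and 3.

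A core of 36 genes was chosen whichever repeat was left out. All 36 were members, which the arithmetic of the rule fixes. Each of its values over 3 repeats is the average of the values with 1 repeat left out. Among the named members these were PDF2.5, SRC2, IQD26, SHB1, GH9C2 and EXLA1, and the core also held AT1G02810, AT1G05280, AT1G67590, AT3G62570, AT4G01410, AT4G39840, AT5G45200 and AT5G48940. OPCL1, AP2C1, SD1-29, CSLC04, WAG2, LEP and ZCF37 were not in it. In repeats 1, 2 and 3, 88, 88 and 89 of the 90 members lay below 0, where 43.7%, 48.0% and 49.8% of genes with a mean of at least 5 did. In all 3 repeats, 85 members lay below 0. The rule averaged these same values, so nothing is read from the counts. The members' own medians in repeats 1, 2 and 3 were -0.57, -0.40 and -0.42. Repeat 1 thus had the largest difference, with the same array of 1 h that was often the lowest.

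For the tests of members, 3 comparisons were used that carry no weight of their own in the rule. One limma model with 8 time means was fitted to all 24 arrays, with Benjamini-Hochberg adjustment over 16552 genes and a threshold of 0.05. The first asked whether the members went on changing between 1 and 2 h. None of the 90 was called, where 0.0181% of all genes were. At an unadjusted p under 0.05, 6 members were lower at 2 h and 3 higher, where 3.99% and 2.71% of all genes were. The median change was -0.11, against 0.01 in genes with a mean of at least 5, and 65 of 90 were below 0 (45.2% of those genes).

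The lowest adjusted p among members for 2 h against 1 h was 0.393 in limma, for GH9C2. Its level differed by -0.31 ± 0.09 (SE), with 8.31, 8.37 and 8.50 at 2 h against 8.73, 8.66 and 8.72 at 1 h, and the arrays did not overlap. WAG2 differed by -0.47 ± 0.19 (SE), with 4.88, 4.98 and 5.18 at 2 h against 5.97, 5.23 and 5.25 at 1 h, again with no overlap but with adjusted p 0.641 in limma. No single member's step from 1 to 2 h passed the test.

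The second comparison asked whether members were still changing late. For 6 h against 4 h, none of the 90 was called by limma (0.0% of all genes), and none passed an unadjusted p under 0.05, where 3.79% of all genes did. The median change was -0.02, and 51 of 90 were below 0 (51.0% of genes with a mean of at least 5). Single members ranged from -0.50 to 0.29. AT3G10250, at 0.26 ± 0.13 (SE), had the lowest p, and its adjusted p was 1.00 in limma.

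The third comparison set 3 h against the average of 0.5 h and the mean of 4 to 6 h, since 3 h entered the rule through the floor on the mean alone. PDF2.5 was the one member called, lower by -0.41 ± 0.09 (SE) with limma adjusted p 0.0495, where 0.0181% of all genes were called lower. Its arrays read 8.77, 8.60 and 8.83 at 0.5 h, 8.22, 8.14 and 8.21 at 3 h, 8.47, 8.45 and 8.43 at 4 h, 8.42, 8.57 and 8.33 at 5 h, and then 8.58, 8.43 and 8.59 at 6 h. The 3 h arrays were below every array of the times they were set against, so the defensin had its lowest time mean at 3 h and was higher again from 4 h on. The call sat at the threshold: without each of the 3 h arrays in turn its adjusted p was 0.153, 0.213 and 0.242, and it was 0.05 or more in 19 of the 24 fits that left out 1 array.

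No member was called higher at 3 h, where 0.181% of all genes were. At an unadjusted p under 0.05, 9 members were lower and 5 higher (4.25% and 4.72% of all genes). The median change was -0.04, and 54 were below 0 (49.6% of genes with a mean of at least 5). AT3G14530 differed by -0.48 ± 0.11 (SE, limma adjusted p 0.109), with 4.91, 4.94 and 4.63 at 3 h below all arrays of 0.5 h and nearly all of 4 to 6 h. AT5G48940 differed by -0.33 ± 0.08 (SE, limma adjusted p 0.151), with 6.94, 7.09 and 7.08 at 3 h. In the opposite direction AT5G39580 differed by 1.26 ± 0.37 (SE, limma adjusted p 0.240), and CSLC04 by 0.18 ± 0.09 (SE, limma adjusted p 0.546).

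Related genes outside the group gave a background for the named members. Of 70 cell wall genes, 2 were called higher at 3 h in the third comparison by limma and none lower. They were XTH33, a xyloglucan-modifying enzyme, and EXPA15, an expansin, and neither was a member. GH9C2, CSLC04 and EXLA1 were not called. For 2 h against 1 h and for 6 h against 4 h none of the 70 was called, with 8 and 2 at an unadjusted p under 0.05 (6.7% and 3.79% of all genes).

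A list of 62 touch, wounding and early stress genes had 12 measured genes and no member. Their median early difference was -0.29, and 9 of 12 were below 0. None passed limma's test for 1 and 2 h against 0 h, where 0.495% of all genes were called lower, and 6 had an unadjusted p under 0.05 (11.2% of all genes). The list was drawn up with earlier results of these data known, and it holds PUB22, PUB24 and WRKY22, which the rule names. The rule also used this comparison, so nothing is read from these counts. WRKY22, a transcription factor of defence signalling, averaged 4.90 at 6 h and 5.82 at 0 h, and PUB23, a ubiquitin ligase that dampens immune signalling, 9.05 at 6 h and 9.61 at 0 h. WRKY22 was kept out by name and by its late minus early value of -0.72. Its mean was still 5.77 at 1 h and was 4.96 at 2 h. PUB23 was kept out by an early difference of -0.32. For LHW, the induced factor's own gene, 1 and 2 h differed from 0 h by -0.30, a value just outside the rule, which also left LHW out by name. At 4 to 6 h LHW differed from 0 h by -0.05, so its lower level was not sustained.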

How the data were processed

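RNA from root meristems was measured on 24 whole-transcript arrays. The deposited values are on a log2 scale, and the submitters' processing notes name RMA as the authors' tool. Its version was not given in the sources used here, and neither was a genome build for the array. RMA gives all arrays nearly the same distribution and makes no detection calls. Of 38408 probe sets, 16746 had 1 annotated gene, 758 several and 20904 none. Probe sets of 1 gene were averaged per gene, which gave 16552 genes, 165 with several probe sets, and the RefSeq table of TAIR10.1 supplied current names (16601 probe sets matched). Groups were the 8 times in the sample titles.

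A linear model with 8 time means used all 24 arrays (lmFit and eBayes of limma 3.58.1, R 4.3.3, Benjamini-Hochberg over 16552 genes), and this step was tested on simulated data. What the rule used was described in the members, and no test of it is reported for them. Limma counts for 1 and 2 h against 0 h, which the rule used, are given for 2 gene lists without members and for all genes. Nothing is read from those counts. The repeats' origin is not stated, so p-values measure the spread between these arrays, which may be technical. The members and gene lists were chosen with earlier results of these data known. Of 44 gene lists, 12 by symbol and 32 by words in annotated names, 3 held a member (jasmonate, cell wall and AP2/ERF). The AP2/ERF search, with 51 genes, matched AP2C1 by its letters alone and missed LEP. Genes named are the 12 lowest early differences without overlap, members called in a comparison, members of a list, the genes next to each limit, the 5 brightest members and the 6 most like the median profile, and the text gives part of them. The other named members, AT5G39580, neighbours and members next in order of p were chosen after their values were seen. Sequences and promoter motifs were not analysed here. Alternatives were median centring, a second quantile normalization, the brightest probe set per gene, the repeat number as a block, a mean-variance trend, array weights, leaving out the dimmest 25% of genes, a log2 change of at least 0.25, and leaving out each array. A fit without the third array of 0, 0.5, 1 and 2 h was added after the data were seen.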

Additional observations from a re-analysis of the deposited data

How the results depend on the processing

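Membership depended on scaling and on single arrays. With each array centred on its median, 139 genes met the rule, 84 of them among the 90. That scaling moved the median early difference of all genes to -0.05 and that of the members to -0.48. A second quantile normalization gave 108 genes and the brightest probe set 89. Leaving out each array gave 81 to 131 genes, 63 to 90 of them members, and 131 without the third array of 0 h. Without the third arrays of 0, 0.5, 1 and 2 h it was 126, with 70 shared. With 2 repeats choosing, the median in the other repeat was -0.28, -0.23 and -0.25.

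For 2 h against 1 h and 6 h against 4 h, limma called no member in any of 33 alternatives, and with each array left out the median changes ran from -0.13 to -0.08 and from -0.04 to 0.00. For 3 h against the average, limma called 1 member. The count was 0 with median centring, 0 with a log2 change of at least 0.25, 2 with the replicate block, 2 with the mean-variance trend and 0 to 1 with each array left out, so that no member was called in 20 of 33 alternatives. The limma adjusted p of PDF2.5 was 0.0583 with median centring, 0.0359 with the block, 0.00391 with the trend, 0.0288 without the third early arrays and 0.0298 to 0.242 with each array left out, and its change was negative in all of them. The block added AT3G14530 (limma adjusted p 0.0395) and the trend AT5G48940 (0.0439). The cause of these shifts was not tested. The main model did not take repeat numbers as pairs. Of 84 pairs of arrays of equal number, 35 had a correlation of their deviations over 0.1 (median 0.08, from -0.05 to 0.48). A shared effect of the repeat number was not tested beyond the fit with the block. Whether arrays of 1 number share a preparation is not stated in the labels. The number of arrays limits precision.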

Other observations

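The rule has a mirror image. With the sign of the early difference turned, 108 genes met it, against 90 members, so moderate early sustained differences ran in both directions.

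Probe sets with no gene name here could not enter the group. Of 20904 such probe sets, 8136 had a mean of at least 5. Among these, 193 met the numbers of the rule and 316 met them with the sign turned.

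Once each time's mean was taken away, correlations between members were low. The mean pairwise Pearson correlation of their deviations over 24 arrays was 0.029, against 0.0079 in genes with a mean of at least 5. This is a description only, since the labels do not state which arrays share a preparation.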
